A study of Mus musculus with 2 samples.

Results

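Chemokines and chemokine receptors were followed by source cell in hepatocyte preparations from mouse liver, taking each gene whose symbol begins with Ccl, Cxcl, Ccr, Cxcr or Ackr and a digit, together with Cx3cl1, Xcl1 and Cx3cr1. The rule found 65 of 31053 rows: 44 ligands, 17 receptors and 4 atypical receptors. Of these, 22 had no count in either library, 9 had 1 to 9 counts over both, and 34 reached the minimum of 10. Counts were unique molecular identifiers (UMIs), which tag single RNA molecules at their 3′ ends, so levels needed no scaling to gene length.

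The data came from 2 libraries of cells isolated by liver perfusion in C57BL/6 mice, 1 library per group. The control library had the genotype LaptTA;WT, in which a tetracycline transactivator is driven by a liver promoter and no inducible transgene is present. The tetYAP 4W library had the genotype LaptTA; tetYAP, which adds an inducible YAP carrying a serine-to-alanine change, and was taken after 4 weeks of induction. Doxycycline food keeps this transgene off, and a regular diet turns it on. With 1 library per group no test between groups was possible, and every interval given is a 95% interval that covers counting error only.

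Chemokines are small secreted proteins that steer leukocytes along gradients through G protein-coupled receptors on the receiving cell. In the liver, resident macrophages (Kupffer cells), sinusoidal endothelial cells, stellate cells and hepatocytes can all release them, and monocytes, neutrophils, T cells and NK cells carry the receptors. Atypical receptors bind chemokines without the usual G protein signal and remove or display them.

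The control library held 2989 barcodes with 9509885 UMIs, and the tetYAP 4W library 1524 barcodes with 6777210 UMIs. The median depth was 3117 and 4150 UMIs per barcode, and no barcode sequence was found in both. Mitochondrial RNA was a median 28.1% of the UMIs of a control barcode and 37.7% of those of a tetYAP 4W barcode. The endogenous Yap1 gene had 16.3 and 18.9 CPM (UMIs scaled to a library total of 1e+06), and whether the transgene is counted there is not stated. Xist had 3 and 4859 UMIs and 4 Y-linked genes 716 and 0, so by these genes the libraries differed in sex as well as in genotype. In every ratio between the libraries, sex, genotype and induction cannot be told apart.

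Clustering with the chemokine genes left out gave hepatocyte-like barcodes, 2704 control and 827 tetYAP 4W ones, and 40 and 284 macrophage-like barcodes. There were 60 and 126 endothelial cell-like, 14 and 130 T or NK cell-like, 59 and 19 stellate or mesenchymal cell-like, 1 and 46 B cell-like and 4 and 38 erythroid cell-like barcodes. A cluster of 47 tetYAP 4W barcodes stayed unnamed because its markers tied between monocytes and neutrophils. It was led by S100a9 and S100a8, and it had no control barcode. Another cluster, led by Nid1 and Hspg2, had 104 control barcodes and no tetYAP 4W barcode. It passed 10 of 12 endothelial markers but stayed unnamed because Rgs5, a stellate or mesenchymal cell marker, and no endothelial marker was among its top 10 genes, and it had 3.92 endothelial marker UMIs per barcode against 39.2 in the endothelial cell-like control barcodes. One led by Klk1 and Siglech had 3 and 7 barcodes. Hepatocyte-like clusters were those in which no other class passed 3 markers, since hepatocyte RNA was in every cluster. The largest of the tetYAP 4W library, cluster 2 with 477 of the 827 barcodes, was led by pancreatic acinar genes such as Sycn and Pnlip and had 62.3% mitochondrial RNA. Its barcodes had 398 UMIs of the 12 hepatocyte markers and 0.277 UMIs of 6 acinar genes among its top 10, against 0.0669 in the other tetYAP 4W barcodes.

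Although the cells are labelled hepatocytes, the macrophage-like, T or NK cell-like and endothelial cell-like classes were well marked. The 12 macrophage markers summed to 69.3 UMIs per macrophage-like tetYAP 4W barcode, and the 12 T or NK cell markers to 23.9 per T or NK cell-like barcode. Hepatocyte RNA was present throughout: the 12 hepatocyte markers had 389 UMIs per hepatocyte-like control barcode and 404 per endothelial cell-like one, and in the tetYAP 4W library they ranged from 246 per macrophage-like to 382 per hepatocyte-like barcode.

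Several chemokine genes lie next to each other, and 2 neighbouring pairs whose levels are given in the results that follow are shown here. On chromosome 5 of GRCm38.p6, 10777 bases separate the annotated Cxcl1 and Cxcl2 genes, and 18558 bases separate Cxcl9 and Cxcl10. Cxcl1 and Cxcl2 attract neutrophils through Cxcr2. Cxcl9 and Cxcl10 are interferon-induced ligands of Cxcr3. The 250 bases before each RefSeq start are printed 5′ to 3′ on the gene's strand, with capitals for a match to the NF-kB consensus or to the interferon response element GAAANNGAAA on either strand. Cxcl1 (chr5:90890995-90891244, plus strand) and Cxcl2 (chr5:90903649-90903898, plus strand) had the same NF-kB letters, GGGAATTTCC, beginning 71 and 97 bases before the start. Cxcl9 (chr5:92328080-92328329, minus strand) had neither motif, and Cxcl10 (chr5:92348890-92349139, minus strand) had a pair of overlapping NF-kB matches and an interferon response element beginning 213 bases before the start.
Cxcl1: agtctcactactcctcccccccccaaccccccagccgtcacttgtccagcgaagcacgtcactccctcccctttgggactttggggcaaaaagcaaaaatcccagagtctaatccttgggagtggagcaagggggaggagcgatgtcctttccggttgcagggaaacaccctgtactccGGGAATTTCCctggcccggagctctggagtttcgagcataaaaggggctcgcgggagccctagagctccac
Cxcl2: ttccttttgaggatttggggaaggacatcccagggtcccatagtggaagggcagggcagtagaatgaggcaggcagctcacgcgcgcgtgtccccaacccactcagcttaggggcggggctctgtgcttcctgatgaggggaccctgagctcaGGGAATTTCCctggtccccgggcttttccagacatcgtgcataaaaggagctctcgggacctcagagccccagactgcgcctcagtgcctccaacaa
Cxcl9: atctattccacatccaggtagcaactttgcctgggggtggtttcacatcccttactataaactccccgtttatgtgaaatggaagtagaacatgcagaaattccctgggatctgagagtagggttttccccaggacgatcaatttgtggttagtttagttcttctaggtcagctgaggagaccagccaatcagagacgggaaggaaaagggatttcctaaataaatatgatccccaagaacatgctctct
Cxcl10: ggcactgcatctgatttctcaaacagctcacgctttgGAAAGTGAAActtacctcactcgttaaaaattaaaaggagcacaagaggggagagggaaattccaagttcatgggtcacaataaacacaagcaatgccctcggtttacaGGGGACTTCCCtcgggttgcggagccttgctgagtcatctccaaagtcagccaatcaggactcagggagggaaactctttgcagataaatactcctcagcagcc

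RefSeq promoters were found for 44 members, 26 of them with at least 10 UMIs. The NF-kB consensus was matched in 6 of these 26 (Ackr2, Ccl9, Ccr3, Cxcl1, Cxcl10 and Cxcl2), and in 5.0% of 32851 promoters. GAAANNGAAA was matched in 2 of the 26, Cxcl10 and Cxcl14, and in 2.98% of all promoters. The TEAD motif GGAATG, bound by the partners of YAP, was matched in 2 of the 26, Cxcl13 and Cxcr2, against 12.6% of all promoters. AP-1 (TGANTCA) was matched in 4 and TATAAA in 7 of the 26, against 6.75% and 12.4%. Motifs were searched on both strands and could overlap. A match describes letters in a window and says nothing of binding.

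Over all barcodes, chemokine and receptor RNA was more abundant in the tetYAP 4W library for nearly every member that could be compared. Of the 34 members with at least 10 UMIs, 30 were higher, meaning at least 2-fold with an interval that leaves out 0 on the log2 scale. Over all genes 36.7% were higher and 7.26% lower by the same rule. The single lower member was Ccl27a, and Cxcl1, Cxcl12 and Ccl9 were not called. The median log2 ratio was 4.06 over the 34 members and 0.60 over all genes tested. All 14 receptors and atypical receptors that could be compared were higher, with a median of 4.15. The minimum of 10 UMIs was taken over both libraries together. In the control by itself, 20 of the 34 members and 5 of the 14 receptors reached it. The rest passed only through the tetYAP 4W library and could hardly come out lower. The same minimum applied to the other pathway genes and within the classes. In such sums a larger share of a cell type and more RNA per cell cannot be told apart, and the classes are therefore taken one by one afterwards.

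Among the ligands, Ccl5, which attracts T cells and monocytes, had 44 control and 2174 tetYAP 4W UMIs. This was 4.63 and 321 CPM, a log2 ratio of 6.12 (interval 5.69 to 6.58). Ccl6, a myeloid ligand of Ccr1, had 62 and 1290 UMIs (log2 4.87, 4.50 to 5.26). Ccl4, a CC chemokine of activated macrophages and lymphocytes, had 30 and 575 UMIs (log2 4.75, 4.22 to 5.33), and its neighbour Ccl3 had 16 and 198 (log2 4.12, 3.38 to 4.95). The annotated spans of Ccl3 and Ccl4 overlap by 755 bases, and how reads from the overlap were assigned is not given in the sources used here. The same limit holds for the other members whose span overlaps another gene, among them Ackr4, Cxcl10 and Cxcr6. With Ccl3 and Ccl4 included, these were 13 of the members with at least 10 UMIs.

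The monocyte attractants Ccl2, Ccl7 and Ccl12, ligands of Ccr2, had 16, 4 and 0 control UMIs and 237, 142 and 29 tetYAP 4W UMIs. The log2 ratio was 4.38 (3.65 to 5.21) for Ccl2 and 5.64 (4.25 to 7.53) for Ccl7. With the control set to a floor of 3 UMIs, Ccl12 was 13.6-fold higher (log2 3.76, from 3.37 with no upper end). Ccl24, an eosinophil attractant that binds Ccr3, had 26 and 336 UMIs (log2 4.18, 3.60 to 4.82). Each of these 4 ligands was called higher.

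The CXC ligands did not move alike. Cxcl2 had 11 and 394 UMIs, a log2 ratio of 5.65 (4.80 to 6.67), whereas its neighbour Cxcl1 had 47 and 53 UMIs, a log2 ratio of 0.66 (0.07 to 1.26). Their intervals did not overlap. The promoters of Cxcl1 and Cxcl2, printed above, hold the same 10 letters of the NF-kB motif. Cxcl9 had 62 and 227 UMIs (log2 2.36, 1.95 to 2.79) and Cxcl10 had 26 and 296 (log2 4.0, 3.42 to 4.64). The intervals of Cxcl9 and Cxcl10 over all barcodes did not overlap. Cxcl16, which is made as a membrane-bound ligand of Cxcr6, had 57 and 346 UMIs (log2 3.09, 2.68 to 3.52). Cxcl13, the attractant of B cells through Cxcr5, had 2 and 105 UMIs, a log2 ratio of 5.62 (4.31 to 9.27) with the control at a floor of 3 UMIs. Cxcl14, a homeostatic chemokine made by epithelia among other cells, had 6 and 49 UMIs (log2 3.52, 2.29 to 5.03), and Xcl1, the lymphocyte product that attracts Xcr1-bearing dendritic cells, had 5 and 121 (log2 5.09, 3.82 to 6.73).

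The ligands with the most control UMIs behaved differently from the rest. Cxcl12, the homeostatic ligand of Cxcr4, had 780 and 477 UMIs, or 82.0 and 70.4 CPM. Ccl9, a Ccr1 ligand, had 595 and 471 UMIs, or 62.6 and 69.5 CPM. Their log2 ratios were -0.22 (-0.39 to -0.05) and 0.15 (-0.03 to 0.33), both within the 2-fold limit. Ccl27a fell from 125 to 26 UMIs, or from 13.1 to 3.84 CPM (log2 -1.78, -2.45 to -1.16). Ccl27a has near-identical copies in the annotation, and the rows of these copies were at 0. Ccl25, the Ccr9 ligand, had 23 and 35 UMIs (log2 1.09, 0.29 to 1.92).

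Receptors had few counts in the control library. Ccr3, the receptor for Ccl24, had 21 and 222 UMIs (log2 3.89, 3.24 to 4.61). Ccr2, the receptor of inflammatory monocytes, had 10 and 215 UMIs (log2 4.92, 4.01 to 6.00). Cxcr6, found on tissue-resident T and NKT cells, had 7 and 167 UMIs (log2 5.07, 3.99 to 6.40). Cxcr3, Cxcr4, Cx3cr1 and Ccr7 had 3, 2, 3 and 2 control UMIs and 72, 67, 76 and 54 tetYAP 4W UMIs. With the control at the floor of 3 UMIs, their log2 ratios lay between 4.66 for Ccr7 and 5.15 for Cx3cr1. The neutrophil receptor Cxcr2 and the myeloid receptor Ccr1 had no control UMI and 20 and 19 tetYAP 4W UMIs. With the control at the same floor they were 9.36-fold and 8.89-fold higher. The lower bounds of their log2 ratios were 2.79 and 2.71, with no upper end. Ccr9 had 14 and 37 UMIs (log2 1.89, 0.97 to 2.89).

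Of the atypical receptors, Ackr1, which carries chemokines across venular endothelium, had 16 and 84 UMIs (log2 2.88, 2.10 to 3.75). Ackr2, a scavenger of inflammatory CC chemokines, had 7 and 27 UMIs (log2 2.44, 1.2 to 3.88), and Ackr4, a scavenger of Ccl19, Ccl21 and Ccl25, had 6 and 18 (log2 2.07, 0.68 to 3.70). Ackr3, the scavenger of Cxcl12, had 0 and 3 UMIs and no fold is given.

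**Figure D1:**
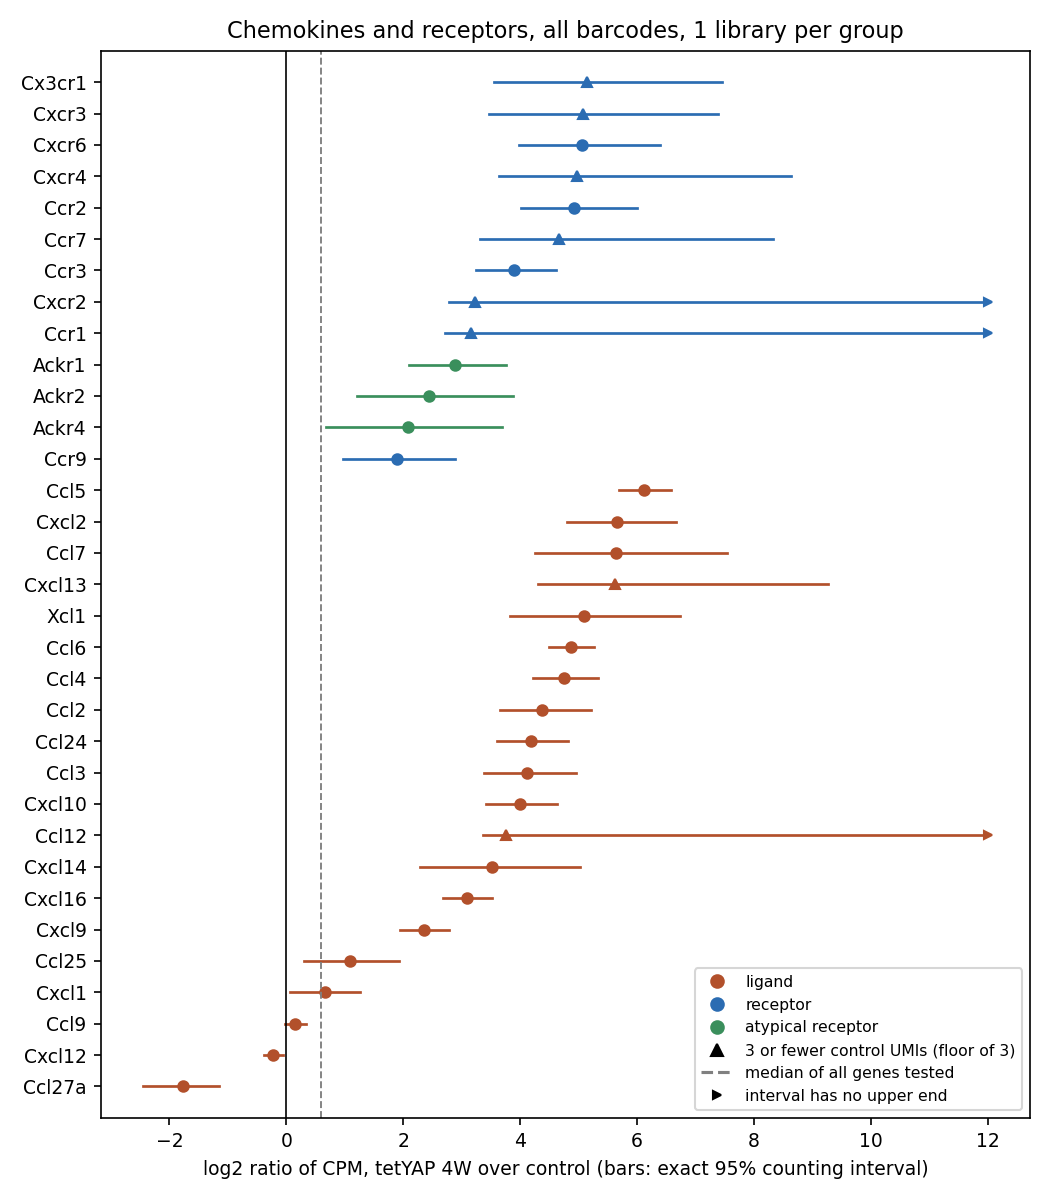
Log2 ratio of CPM, tetYAP 4W over control, for 33 of the 34 members with at least 10 UMIs over both libraries, with bars for the exact 95% counting interval. Ccl5 stands highest at 6.12 and Ccl27a is the only point whose whole bar lies below -1, while Cxcl12 and Ccl9 lie near 0.

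Of 38 other genes of the chemokine pathway, 36 reached 10 UMIs, 34 were higher and none lower, against the same 36.7% and 7.26% over all genes. Their median log2 ratio was 3.83. Among those with at least 100 UMIs in a library, high ratios included those of Dock2 (5.69), Itga4 (5.58), Rac2 (4.80) and Itgb2 (4.77). Dock2 and Rac2 drive actin remodelling in leukocytes, and Itga4 and Itgb2 are integrin chains used in arrest on endothelium. The lowest were Rarres2 (-0.83), Gnai3 (-0.73), Dpp4 (1.11), Itgb1 (1.29) and Gnb1 (1.35). Rarres2 encodes chemerin, which hepatocytes secrete, and it had 588 and 330 CPM. Rarres2 and Gnai3 were the 2 genes not called.

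The classes that held the ligand RNA differed between the libraries. In the control, hepatocyte-like barcodes held 77.2% of the 1941 ligand UMIs (interval 75.2 to 79.0) and were 90.5% of barcodes. Macrophage-like barcodes held 9.58% of the ligand UMIs and were 1.34% of barcodes. Of the 1498 ligand UMIs in hepatocyte-like control barcodes, Cxcl12, Ccl9 and Ccl27a made up 1349, or 90.1%. In the tetYAP 4W library, 36.5% (35.4 to 37.6) of the 7586 ligand UMIs were in macrophage-like and 34.1% (33.1 to 35.2) in T or NK cell-like barcodes. Hepatocyte-like barcodes, 54.3% of the library, held 13.2% (12.5 to 14). Endothelial cell-like barcodes held 7.70% and the cluster led by S100a9 5.22%. One gene weighed on these shares: without Ccl5, T or NK cell-like barcodes held 9.44% and macrophage-like barcodes 50.2% of the tetYAP 4W ligand UMIs.

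Receptor RNA lay mostly outside the hepatocyte-like class in both libraries. The control had 115 receptor UMIs, of which macrophage-like barcodes held 32.2% (23.8 to 41.5), T or NK cell-like 18.3% and hepatocyte-like 15.7%. The tetYAP 4W library had 1461, with 37.8% (35.3 to 40.3) in macrophage-like, 28.7% (26.4 to 31.1) in T or NK cell-like and 13.6% (11.8 to 15.4) in the S100a9-led cluster. Hepatocyte-like barcodes held 5.68%. The order of the first 2 rested on 1 receptor, and leaving it out gave 25.1% macrophage-like and 35.2% T or NK cell-like.

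**Figure D2:**
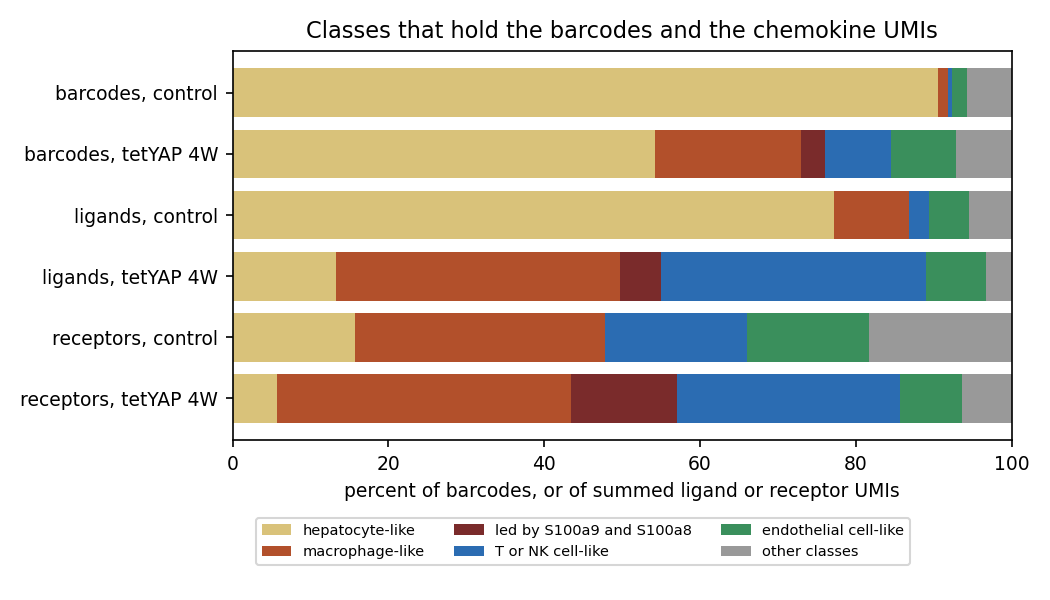
Percent of barcodes, of summed ligand UMIs and of summed receptor UMIs held by each class in the control and tetYAP 4W libraries, as stacked bars from 0 to 100. Hepatocyte-like barcodes held 77.2% of the control and 13.2% of the tetYAP 4W ligand UMIs.

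A class was called a source of a gene where it had at least 10 UMIs and the lower bound of its UMIs per 100 barcodes lay above the upper bound in hepatocyte-like barcodes. For the hepatocyte-like class the bound came from the pooled lymphoid (B, T or NK) and erythroid classes. In the tetYAP 4W library, macrophage-like barcodes were a source of 20 of 34 members, 15 ligands and 5 receptors, against 35.6% of all genes tested. T or NK cell-like barcodes were a source of 11, 4 ligands and 7 receptors (all genes 28.3%), the S100a9-led cluster of 13 (19.1%) and endothelial cell-like barcodes of 6 (50.1%). B cell-like barcodes were a source of Cxcr4 and Ccr7 (7.06%), stellate or mesenchymal cell-like (2.09%) and hepatocyte-like barcodes (3.04%) each of Cxcl12, and erythroid cell-like barcodes of none (0.406%). For Ccl27a and Ccl25 no class was called. Read against these shares of all genes, the endothelial cell-like calls were fewer and the T or NK cell-like calls about as many. In the control, macrophage-like barcodes were a source of 9 of 20 members (all genes 8.77%), endothelial cell-like barcodes of 5 (23.0%), T or NK cell-like barcodes of Ccl5 (3.05%) and hepatocyte-like barcodes of none (0.0857%). The control pool that set the hepatocyte-like bound had 19 barcodes, where even 0 UMIs gave an upper bound of 19.4 per 100. Members at low levels, such as Ccl27a at 4.29 per 100 hepatocyte-like barcodes, could therefore not be called.

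**Figure D3:**
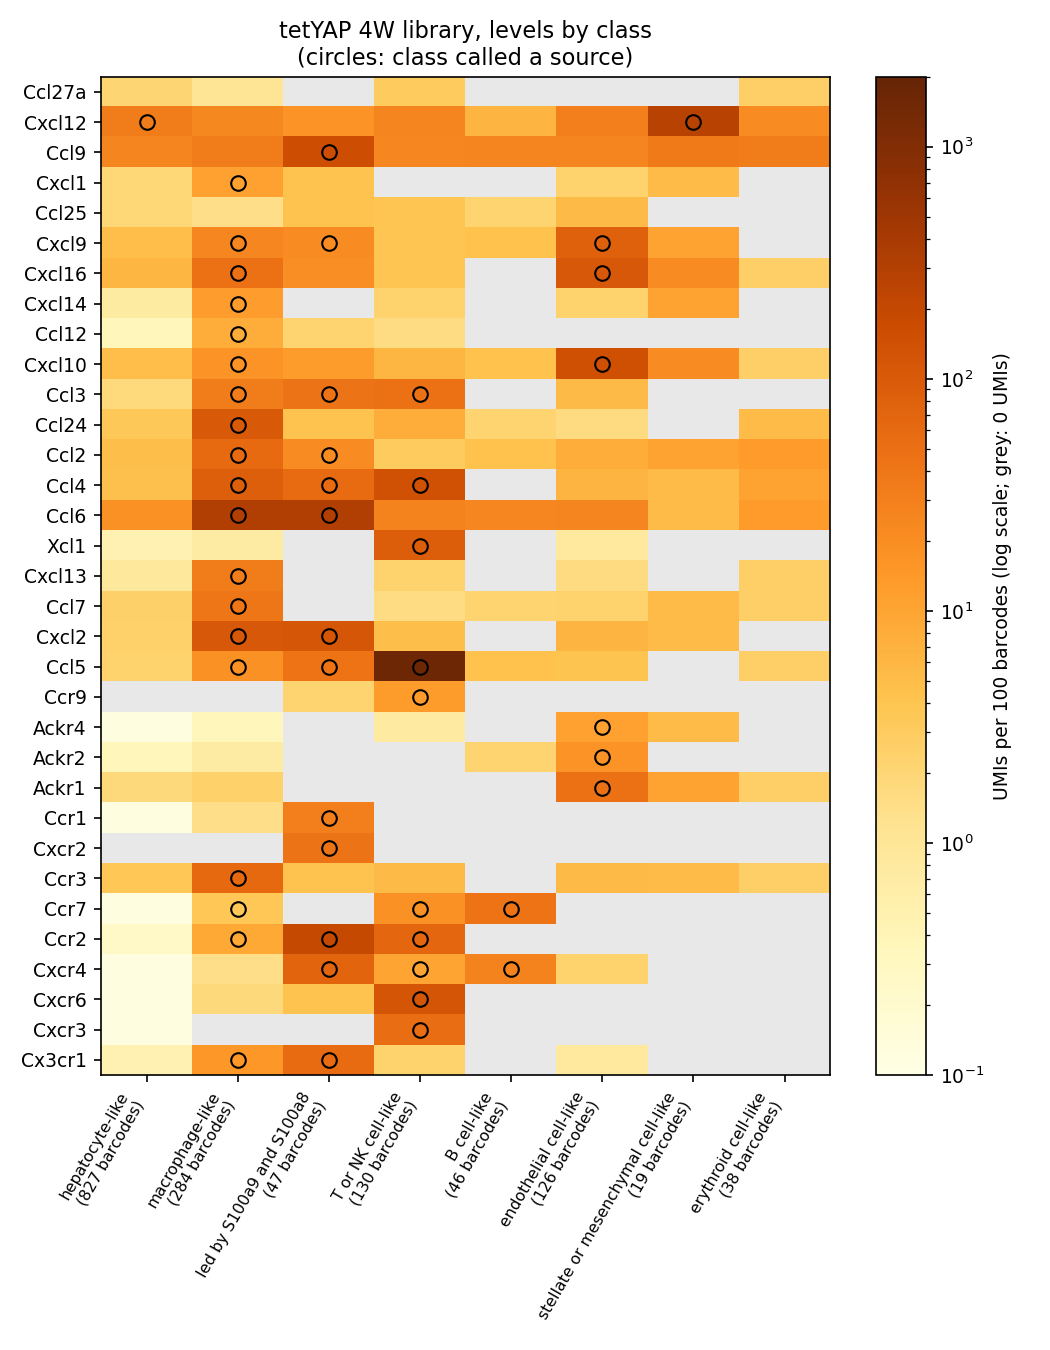
UMIs per 100 barcodes of 33 members (rows) in 8 classes of the tetYAP 4W library (columns) on a log color scale, with grey for 0 UMIs and circles where the class was called a source. The unnamed cluster of 7 barcodes led by Klk1 and Siglech is left out, and the darkest cell is Ccl5 in T or NK cell-like barcodes at 1598.

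Macrophage-like barcodes carried the broadest set of ligands. Ccl6 had 320 UMIs per 100 macrophage-like barcodes (299 to 341) in the tetYAP 4W library, 321 (272 to 377) per 100 in the S100a9-led cluster and 17.4 (14.7 to 20.5) per 100 hepatocyte-like barcodes. Cxcl2 had 107 (95 to 119) against 2.42, Ccl24 had 102 (91.0 to 115) against 3.39, and Ccl4 had 84.2 (73.8 to 95.5) against 4.47. Ccl2, Ccl7 and Ccl12, the Ccr2 ligands, had 57.8, 39.8 and 8.10, against 4.72, 2.54 and 0.363. Their intervals in the 2 classes did not overlap. Cxcl13 had 32.0, Cxcl14 12.3 and Cxcl1 10.9 per 100 macrophage-like barcodes. Cxcl9 and Cxcl10 had 24.3 and 16.9, below the endothelial cell-like level, and 31 of the 69 Cxcl9 UMIs lay in 1 barcode.

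The macrophage-like class also carried receptors. Ccr3, best known from eosinophils, had 61.3 UMIs per 100 macrophage-like barcodes (52.5 to 71.1), and no other class exceeded 5.56. In the control, Ccr3 was likewise highest in macrophage-like barcodes, with 45 (26.7 to 71.1). The 10 Ccr7 UMIs of the class lay in 1 barcode, so its call as a source of Ccr7 was lost without that barcode.

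The 2 clusters that make up the macrophage-like class, split after the data had been seen, differed in level. Cluster 6 (107 tetYAP 4W barcodes, median 4946 UMIs) and cluster 4 (177 barcodes, median 3807 UMIs) both had Clec4f, the Kupffer cell lectin, at 1323 and 790 UMIs per 100 barcodes. The macrophage markers Cd5l, with 2034 and 736, and Adgre1, with 287 and 131, differed by more. Per 100 barcodes of cluster 6 and cluster 4, Ccl6 had 589 and 157, Cxcl2 186 and 58.8, Ccl2 102 and 31.1, Cxcl13 69.2 and 9.61 and Ccr3 113 and 29.9. Ccr2 went the other way, with 1.87 (0.226 to 6.75) and 13.6 (8.69 to 20.2), as did Ccl5 with 6.54 and 23.7. Alb, the main plasma protein made by hepatocytes, had 9793 UMIs over the 107 barcodes of cluster 6 and 24540 over the 177 of cluster 4, so the cluster with the higher Ccl6 and Cxcl2 levels had less Alb per barcode. The top 10 genes of cluster 4 also held the platelet genes Ppbp, Gp9, Nrgn and Pf4 and the dendritic cell receptor Xcr1. All 50 Ppbp UMIs, with 48 of the 74 Pf4 UMIs, lay in 1 barcode that had no Ccl5 or Ccr2 UMI, and 10 Xcr1 UMIs lay in 5 barcodes. The Ccl5 and the Ccr2 UMIs of cluster 4 each lay in 11 barcodes.

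T or NK cell-like barcodes held most of the Ccl5 and the receptors Cxcr3 and Cxcr6. Ccl5 had 1598 UMIs per 100 T or NK cell-like barcodes (1530 to 1668), 17.2 per 100 macrophage-like and 2.30 per 100 hepatocyte-like ones. It was counted in 87 of 130 T or NK cell-like and 19 of 827 hepatocyte-like barcodes, whose median depths were 4715 and 3978 UMIs. Xcl1 had 87.7 (72.3 to 105), and 114 of its 121 UMIs were in this class. Cxcr6 had 122 (104 to 143), with 159 of 167 UMIs, and Cxcr3 had 53.1 (41.3 to 67.2), with 69 of 72. Ccr2 had 66.2 (52.9 to 81.7) and Ccl4 had 140 (120 to 162).

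Within the class, several members differed in level between barcodes with NK cell and with T cell markers, in a split made after the data had been seen. The 18 barcodes with Ncr1 or Klrb1c, which mark NK cells, and no Cd3 gene had 4728 Ccl5 UMIs per 100 barcodes (4415 to 5056), 189 of Ccl3 and 350 of Ccl4. The 83 barcodes with a Cd3 gene and neither NK marker had 970 of Ccl5 (904 to 1039), 24.1 of Ccl3 and 101 of Ccl4. Cxcr6 had 0 UMIs in the 18 barcodes, with an upper bound of 20.5 per 100, and 119 (96.9 to 145) per 100 of the 83. Ccr2 had 100 (59.3 to 158) per 100 of the 18 and 54.2 (39.6 to 72.5) per 100 of the 83, with overlapping intervals. Ccr7, the receptor of naive and central memory T cells, had 23 UMIs, all in the 83. The 26 barcodes with both kinds of marker had the highest levels of Xcl1, 208 per 100 (156 to 271), and Cxcr6, 231 (176 to 297). Doublets remain in the data, so both kinds of marker in a barcode need not come from 1 cell.

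The cluster led by S100a9 held the receptors of blood myeloid cells. Of its 47 barcodes, 12 had more UMIs of neutrophil than of monocyte markers, and 35 had more of monocyte markers. The tetYAP 4W library had 20 Cxcr2 UMIs, and all 20 lay in these 12 barcodes (167 per 100, 102 to 257). Ccr1 had 83.3 per 100 of the 12 and 11.4 per 100 of the 35. Ccr2 and Cx3cr1 showed the reverse order, with 8.33 and 0 per 100 of the 12 and 257 (207 to 316) and 74.3 (48.5 to 109) per 100 of the 35. Ccl9 and Ccl6 had 200 and 374 per 100 of the 35 and 33.3 and 167 per 100 of the 12, and Cxcl2 had 106 and 142. In the whole cluster, 19 of 21 Ccl5 UMIs lay in 1 barcode.

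Among the named classes, endothelial cell-like barcodes had the highest levels of the Cxcr3 ligands Cxcl9 and Cxcl10 and of the Cxcr6 ligand Cxcl16, and held most UMIs of the atypical receptors. In the tetYAP 4W library Cxcl10 had 148 UMIs per 100 endothelial cell-like barcodes (127 to 170), against 16.9 in macrophage-like and 4.96 in hepatocyte-like barcodes. Cxcl16 had 110 (92.0 to 129) against 48.6 and 6.17, and Cxcl9 had 77.8 (63.1 to 94.8) against 24.3 and 4.96. For each of these ligands the endothelial cell-like level had an interval that did not overlap that of the macrophage-like class. By UMIs, Cxcl16 was divided evenly, with 138 in endothelial cell-like and 138 in macrophage-like barcodes. Ackr1 had 46.8 (35.6 to 60.4), with 59 of 84 UMIs, Ackr2 had 16.7, with 21 of 27, and Ackr4 had 11.1, with 14 of 18.

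Cxcl12 and Ccl9 were spread over the classes. Cxcl12 had 274 UMIs per 100 stellate or mesenchymal cell-like barcodes of the tetYAP 4W library (204 to 359), and 15 of these 19 barcodes had a UMI. Hepatocyte-like barcodes had 32.8 (29.0 to 36.9) and endothelial cell-like ones 30.2 (21.3 to 41.4). In the control the level was 33.9 (20.7 to 52.4) in 59 stellate or mesenchymal cell-like barcodes and 24.9 (23.1 to 26.9) in hepatocyte-like ones. Endothelial cell-like control barcodes had more, 48.3 (32.4 to 69.4), with an interval that overlapped the stellate or mesenchymal cell-like one. The 2 groups of stellate or mesenchymal cell-like barcodes were in 1 cluster. Ccl9 had 20.7 (19.0 to 22.5) per 100 hepatocyte-like control barcodes, against 13.3 in endothelial cell-like and 10 in macrophage-like ones. In the tetYAP 4W library, Ccl9 lay between 23.9 and 36.8 in the named classes and reached 157 (124 to 198) in the S100a9-led cluster. Set against all other control barcodes pooled, a comparison added after the data had been seen, hepatocyte-like barcodes were a source of Ccl9.

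Small classes held 2 more receptors. The 7 tetYAP 4W barcodes led by Klk1 and Siglech, a gene of plasmacytoid dendritic cells, had 19 of 37 Ccr9 UMIs, with a UMI in 7 of 7, and 78 Ccl4 UMIs, also in 7 of 7. In the control, 3 such barcodes held 11 of 14 Ccr9 UMIs. Cxcr5, the Cxcl13 receptor, had 8 tetYAP 4W UMIs, of which 7 were in B cell-like barcodes, and Ccr7 had 43.5 per 100 B cell-like barcodes (26.6 to 67.2).

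Set side by side in the tetYAP 4W library, ligands and receptors of a known pair often peaked in different classes. Ccl2 was highest in macrophage-like barcodes and its receptor Ccr2 in the S100a9-led cluster. Cxcl9 and Cxcl10 were highest in endothelial cell-like and Cxcr3 in T or NK cell-like barcodes, and the same held for Cxcl16 and Cxcr6. Ccl24 and Ccr3 both peaked in macrophage-like barcodes. Ccl6 and Ccl9 peaked with their receptor Ccr1 in the S100a9-led cluster, as did Cxcl2 with Cxcr2. Within that cluster, Ccr1 was higher in the barcodes with more neutrophil markers, and Ccl6 and Ccl9 in those with more monocyte markers. Ccl6 and Cxcl2 were nearly as high in macrophage-like barcodes, at 320 and 107 per 100 against 321 and 115. Cxcl13 was highest in macrophage-like and Cxcr5 in B cell-like barcodes. Some receptors lacked a counted partner. Ccl19 and Ccl21a had 0 tetYAP 4W UMIs beside 54 of Ccr7, and Ccl17 and Ccl22 had 0 beside 5 of Ccr4. Cx3cl1 had 3 UMIs beside 76 of Cx3cr1. A peak of RNA in a class does not show that the protein is released or bound.

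Hepatocyte-like barcodes had a low level of nearly all these ligands in the tetYAP 4W library, and macrophage markers were there too. The 12 macrophage markers had 0.0769 UMIs per hepatocyte-like control barcode and 3.36 per tetYAP 4W one, or 4.86% (4.68 to 5.04) of the macrophage-like level. Single markers lay between 3.73% for Timd4 and 5.56% for C1qb. In B, T or NK, erythroid, stellate or mesenchymal and endothelial cell-like tetYAP 4W barcodes the 12 markers had 3.59 to 4.23 UMIs per barcode. Most macrophage-like ligands lay close to this band: Ccl3 had 5.12% (2.80 to 8.58) of its macrophage-like level in hepatocyte-like barcodes, Ccl4 5.32% and Ccl6 5.45% (4.59 to 6.41). Cxcl2 lay below, at 2.27% (1.39 to 3.50), and Ccl2 and Cxcl1 above, at 8.17% (5.81 to 11.2) and 17.7% (10.1 to 28.8). Ccl2 was no higher per 100 hepatocyte-like barcodes, 4.72 (3.35 to 6.45), than in the pooled lymphoid and erythroid classes, 5.14 (2.57 to 9.20). Cxcl1 had 1.94 (1.11 to 3.14) per 100 hepatocyte-like barcodes and 0 in that pool, with an upper bound of 1.72. Cxcl10 had 3.36% (2.41 to 4.56) of its endothelial cell-like level, where the 12 endothelial markers had 3.81%, and Cxcl9 6.37% (4.57 to 8.65). Ccl5 had 0.144% of its T or NK cell-like level, where the 12 T or NK cell markers had 0.0606%.

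**Figure D4:**
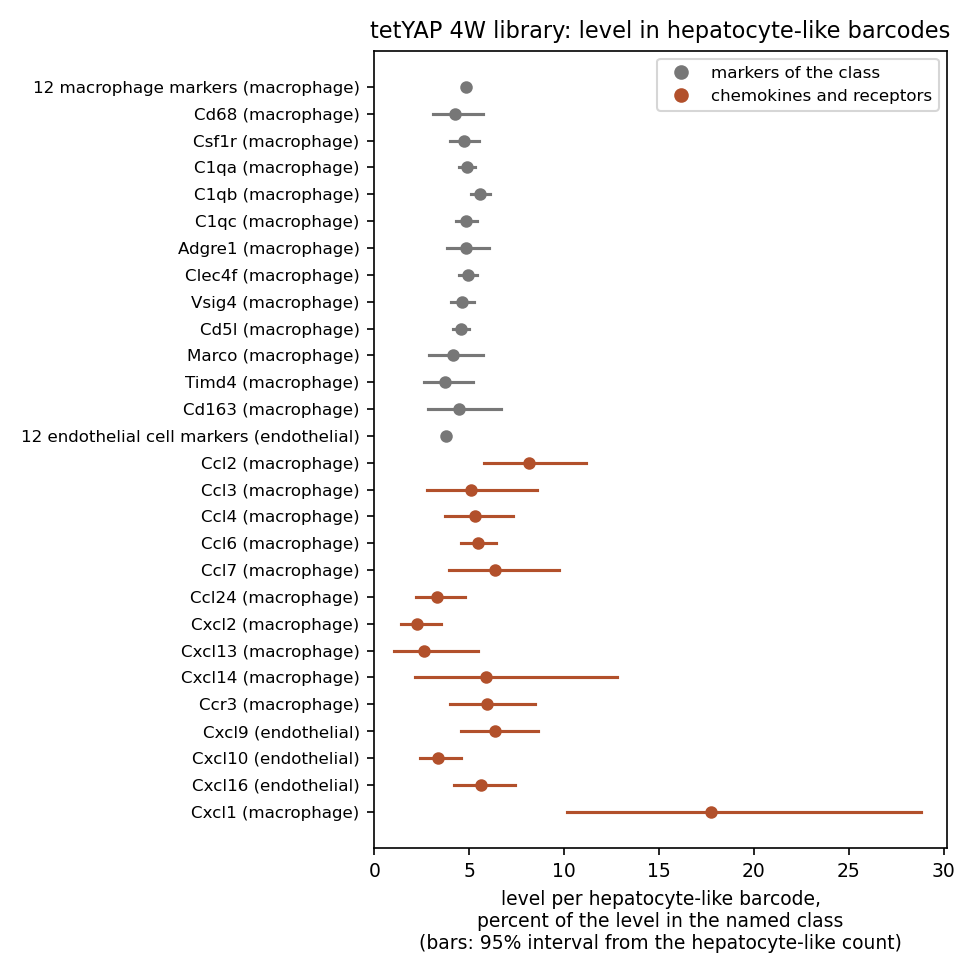
UMIs per hepatocyte-like barcode of the tetYAP 4W library as a percent of the level in the class named in brackets, for members set against macrophage-like or endothelial cell-like barcodes, with bars for the 95% interval from the hepatocyte-like count. Marker genes (grey) lie between 3.73% and 5.56%, and the chemokines and receptors (brown) between 2.27% for Cxcl2 and 17.7% for Cxcl1.

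Within hepatocyte-like barcodes, 14 of 19 members were higher and Ccl27a lower in the tetYAP 4W library, against 17.7% and 12.6% of all genes. Ccl6 had 6 UMIs over 2704 control and 144 over 827 tetYAP 4W barcodes (log2 5.87, 4.71 to 7.34), and Ccl2 had 2 and 39. Cxcl12, Ccl9, Cxcl1 and Ccl25 were not called. In the same barcodes the macrophage markers moved as given above and the 12 endothelial markers went from 0.271 to 2.55 UMIs per barcode, and their part in the result was not tested. Cluster 8, with 41 control and 76 tetYAP 4W barcodes, was the only hepatocyte-like cluster that held barcodes of both libraries. In cluster 8 by itself Ccl6 was not called (log2 0.03, from -0.49 with no upper end), Cxcl12 was higher (log2 1.08, 0.01 to 2.35), and most members had fewer than 10 UMIs. Without cluster 2, 13 members were higher and none lower, and Ccl27a was not called (log2 -0.70, -1.74 to 0.19). Median mitochondrial RNA was 28.2% and 55.4%, and without barcodes above 30%, 7 members were higher and none lower.

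Within macrophage-like barcodes, 7 of 22 members were higher and none lower, against 2.53% and 5.01% of all genes. Cxcl2 had 10 UMIs over 40 control and 303 over 284 tetYAP 4W barcodes, or 66.5 and 243 CPM of the class (log2 1.87, 0.97 to 2.95). Ccl6 had 359 and 729 CPM (log2 1.02, 0.62 to 1.45). Ccl7, Ccl9, Cxcl13 and Cxcl9 were also higher. Cxcl9 rested on 1 control UMI, and without the barcode with most of its UMIs in each library it was not called (log2 0.61 against 1.47). Ccl9, with 4 control UMIs, was not called in cluster 6 (log2 1.11), at resolution 1.2 (log2 1.21) or with classes from marker UMIs (log2 1.36). Ccl4, with 180 and 192 CPM (log2 0.10, -0.48 to 0.73), Ccl2, with 86.5 and 132 (log2 0.61, -0.21 to 1.55), and Ccl3 (log2 -0.40, -1.2 to 0.49) were not called. The 12 macrophage markers themselves had 8907 and 15793 CPM, a 1.77-fold difference. Scaled to these markers, Cxcl2 and Cxcl13 stayed higher, and Cxcl12 and Ccl3 were lower. In cluster 6, which holds 26 control and 107 tetYAP 4W barcodes, the count of higher members was 6.

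Within endothelial cell-like barcodes, Cxcl10 had 12 UMIs over 60 control and 186 over 126 tetYAP 4W barcodes, or 42.5 and 249 CPM (log2 2.55, 1.71 to 3.53). Cxcl16 had 70.8 and 185 CPM (log2 1.38, 0.70 to 2.14), and Cxcl9 60.2 and 131 (log2 1.13, 0.37 to 1.96). These and Ccl6 were the 4 of 10 members that were higher (all genes 8.97%), and Cxcl12, with 103 and 50.9 CPM (log2 -1.01, -1.75 to -0.26), was the lower one (5.26%). The endothelial markers differed 1.36-fold, and scaled to them Cxcl10 and Ccl6 stayed higher. Ccl6 had 1 and 33 UMIs here, and the 12 macrophage markers went from 0.617 to 4.23 UMIs per barcode, whose part in the result was not tested. With the 104 barcodes led by Nid1 added to the control class, 8 members were higher, among them Ackr1, Ackr2, Ackr4 and Ccl2, and Cxcl10 had a log2 ratio of 3.58 (2.77 to 4.52). Of the control barcodes 55 were in cluster 12 and 5 in cluster 7, and of the tetYAP 4W barcodes 2 and 124. Cxcl9 was not called after edgeR TMM scaling (log2 0.83), and Cxcl12 not without the barcode with most of its UMIs (log2 -0.80).

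Within T or NK cell-like barcodes, a class added after the data had been seen, Ccl5 had 40 UMIs over 14 control and 2077 over 130 tetYAP 4W barcodes, or 651 and 3352 CPM (log2 2.36, 1.91 to 2.85). Ccl4 had 0 and 182 UMIs, 6.01-fold higher with the control at the floor of 3 UMIs (log2 2.588, from 2.275 with no upper end). Cxcr6 had 6 and 159 UMIs (log2 1.39, 0.24 to 2.86). These were the 3 of 15 members that were higher, against 1.77% of all genes, and none was lower (4.62%). The 12 T or NK cell markers differed 2.24-fold in the same direction, and scaled to them Ccl5 (log2 1.2, 0.75 to 1.69) and Ccl4 stayed higher, Cxcr6 did not (log2 0.23) and Cxcl12 was lower.

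**Figure D5:**
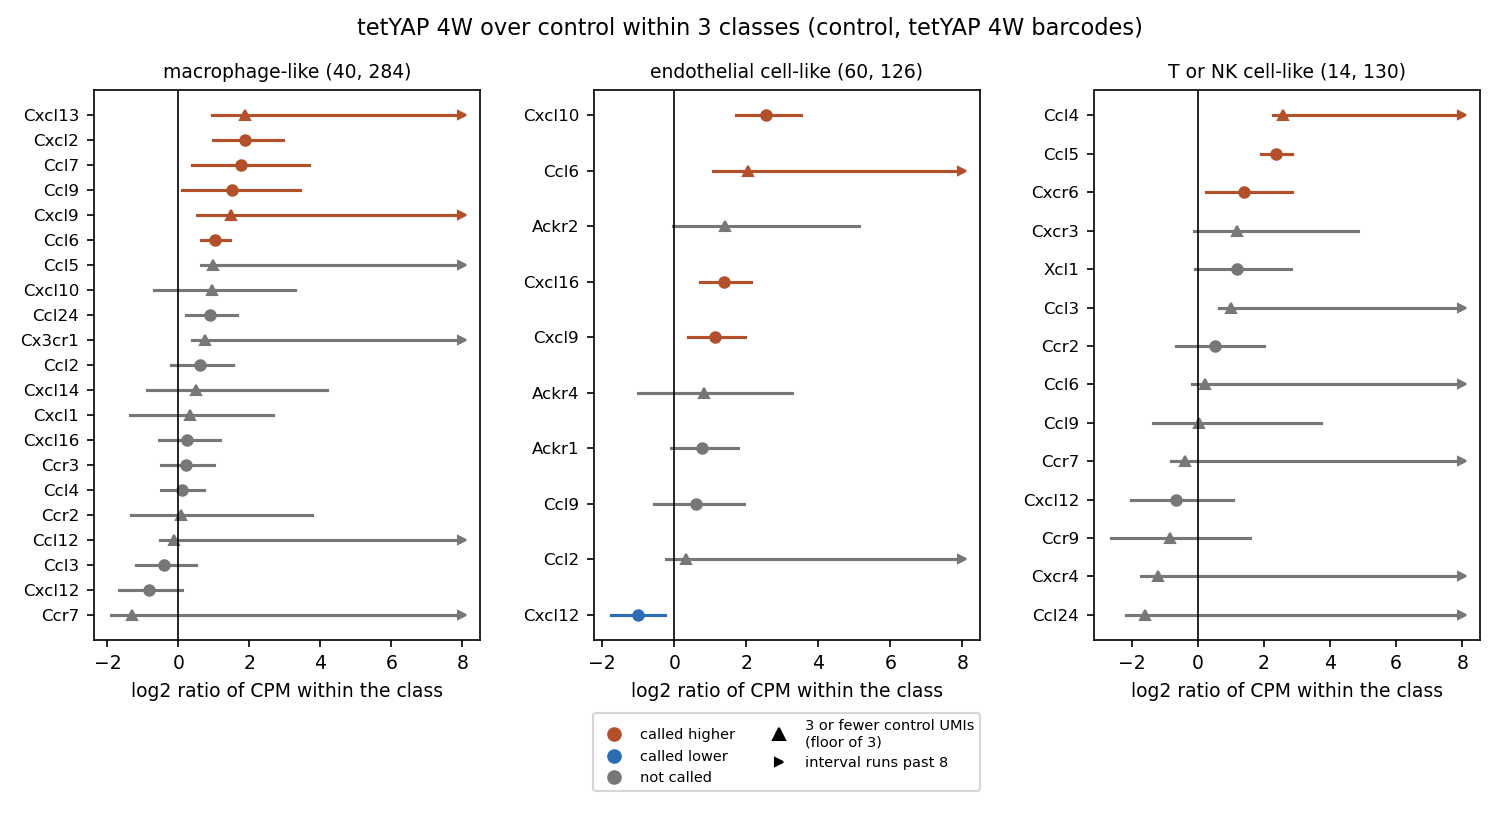
Log2 ratio of class CPM, tetYAP 4W over control, for members with at least 10 UMIs within macrophage-like, endothelial cell-like and T or NK cell-like barcodes, with bars for the exact 95% counting interval. Cxcl10 in endothelial cell-like barcodes (2.55) and Ccl5 in T or NK cell-like barcodes (2.36) are the points with the highest lower bounds that rest on more than 3 control UMIs.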

How the data were processed

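The authors deposited raw counts, whole numbers of UMIs per gene and barcode, made with Cell Ranger on mm10 from Chromium 3′ v3 libraries. Per the methods, barcodes were sampled to 3000 per condition and those above 7500 UMIs excluded; the table held 2989 and 1524. Clustering used scanpy 1.11.5 with counts scaled to 10000 (2000 variable genes without chemokine genes, 20 components, 15 neighbours, resolution 0.8). A cluster took the name of the class with most markers past 10 UMIs and 3-fold over the other barcodes of the library, at least 3 in number. Hepatocyte markers were not used in this step, and a cluster in which no other class reached 3 was named hepatocyte-like. A tie, or more markers of another class than of its own among its top 10 genes by fold, left a cluster unnamed. Doublets were called with Scrublet in 9 control barcodes (0.301%) and 0 tetYAP 4W barcodes, too few for the caller to have worked, so they remain. UMIs were summed per library or class, scaled to CPM and compared as log2 ratios with a floor of 3 UMIs, exact conditional binomial intervals for ratios, Poisson intervals for levels and Clopper-Pearson intervals for shares. These intervals take UMIs as independent counts, so they leave out the spread between cells and between animals and are too narrow where few barcodes hold most UMIs. The calls rest on them, and no p-value was computed. The calling rules were tested on simulated data. edgeR 4.0.16 gave TMM factors as an alternative scaling. Values were named for members with at least 10 UMIs, and by class for those with at least 50, for 6 chemokines of the study's own list and for partners of known pairs. Counts, medians and shares include 1 member that is not reported here by name or in the plots. Members, lists and rules were chosen with earlier results of these data known.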

Additional observations from a re-analysis of the deposited data

Results flagged for a closer look

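Xist reached 4859 tetYAP 4W UMIs beside 3 control UMIs, a signal in a gene outside the comparisons above. The labels give no sex, but with the Y-linked counts given above the libraries differed in sex. Sex, genotype and induction therefore cannot be told apart in any ratio between the libraries. No group had the 4 samples that a search for outlying samples needs.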

How the results depend on the processing

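Of 176 alternative values for the counts and shares, 145 kept within 1.5 times the reported count or within its interval, among them each alternative count over all barcodes. In hepatocyte-like barcodes the lower count became 0 with mitochondrial and the 50 most abundant genes left out of the total, and 7 higher and 0 lower without barcodes above 30% mitochondrial UMIs; cluster 8 by itself gave 1 and 0, and the class without cluster 2 gave 0 lower and, in the tetYAP 4W library, 2 members with a hepatocyte-like source (Cxcl12 and Cxcl16). In macrophage-like barcodes 3 were higher with classes from marker UMIs without clusters, and 2 higher and 2 lower after scaling to class markers. In endothelial cell-like barcodes the lower count was 0 with marker UMIs and 0 without the barcode with most UMIs of the gene, and 2 were higher after scaling to class markers and 8 with cluster 9, led by Nid1, added. In T or NK cell-like barcodes 6 were higher without barcodes above 30% mitochondrial UMIs, 5 without the barcode with most UMIs and 1 lower after scaling to class markers. Hepatocyte-like barcodes were a source of 0 members in the tetYAP 4W library with marker UMIs, and of 1 control and 0 tetYAP 4W members against all other barcodes; endothelial cell-like control barcodes were a source of 3 without the barcode with most UMIs. The hepatocyte-like ligand share was 10.1% in the tetYAP 4W library at resolution 0.4, and 74.1% at resolution 1.2 and 81.3% with marker UMIs in the control; the tetYAP 4W macrophage-like share was 37.6% with marker UMIs. Without the most abundant member these shares were 71.0% (control), 18.2% and 50.2%, the T or NK cell-like ligand share 9.44%, and the receptor shares 25.1% (macrophage-like) and 35.2% (T or NK cell-like). The cause of each was not tested. Resolution 0.4 gave no macrophage-like class and no S100a9-led cluster, and marker UMIs no such cluster, so those values are missing. No single member that was called turned its direction. Over all barcodes, Ccl25 was not called with TMM factors (log2 0.56) or with thinned tetYAP 4W barcodes (log2 0.84). Settings based on clusters, markers and single barcodes beyond those listed at the outset were chosen after seeing the data. No paired analysis was possible because each group has 1 library, which also leaves no replicate to leave out.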
